A study of Homo sapiens with 2 samples.

Results

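The respiratory chain genes of 2 single-cell libraries from human pluripotent stem cell cultures were described, with the mitochondrial-encoded and the nuclear-encoded genes kept apart. Members were chosen by name alone: the row names of the count tables for the ND, CO, CYB and ATP genes of mitochondrial DNA, and the NDUF, SDH, UQCR, CYC1, COX5 to COX8 and ATP5 families of the nucleus, without the P-and-digit names of pseudogenes. No COX4 name matched the pattern. The rule found 97 of the 33694 gene names, 13 mitochondrial-encoded and 84 nuclear-encoded. Read by the letter, the last clause would also drop MT-ATP6 and MT-ATP8. They are not pseudogenes and the pattern itself names them, so both were kept, and 95 members would be left without them.

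Both libraries were made from H9, an established human embryonic stem cell line. The day 10 library (D10) held adherent cells on Geltrex during enteric neural crest induction, in which BMP and WNT signalling and retinoic acid drive the cells towards vagal neural crest. The day 15 library (D15) held free-floating enteric crestospheres, formed from the detached monolayers in medium with FGF2 and the WNT agonist CHIR 99021. According to the paper's methods, the induction media also held the small molecule SB431542. Beyond the components of the culture media no treatment was applied. Each library pooled 2 independent biological repeats of 1 line that the deposited labels do not separate, so each stage is 1 sample. There is therefore no replicate check on any difference in the text and no test, and stage, culture format, medium, depth and library cannot be told apart.

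The respiratory chain passes electrons from NADH (complex I) and succinate (complex II) through cytochrome bc1 (complex III) and cytochrome c to oxygen (complex IV), and ATP synthase (complex V) uses the resulting proton gradient. Complexes I, III, IV and V are built from subunits of both genomes, whereas every subunit of complex II is encoded in the nucleus. The mitochondrial genes are read from long polycistronic RNAs that are cut into single messages, except for 2 messages that carry overlapping reading frames, and the nuclear genes are transcribed one by one and their proteins imported.

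The D10 library held 9627 cells and 70488169 unique molecular identifiers (UMIs), with a median of 6713 per cell, and the D15 library held 6320 cells and 84976253 UMIs, with a median of 11770.5. The authors kept 7295 and 5336 cells and marked the rest as filtered. The kept cells carried the deposited labels ENCC (enteric neural crest cell; 4921 cells at day 10 and 4934 at day 15), neuro-epithelial progenitor (NEP; 1811 and 104), cranial placode (CP with 324 at day 10, and CP1 and CP2 with 208 and 43 at day 15), non-neural ectoderm (NNE; 239, day 10 alone) and mesenchymal (Mes; 47, day 15 alone). SOX10 and FOXD3 were highest in ENCC of both libraries, WNT2B in NEP of both, EYA2 in CP and CP1, EPCAM and CDH1 in NNE of day 10, and TWIST1 and MSX1 in Mes of day 15. PAX6, a second marker of NEP, was highest in NEP at day 10, but at day 15 it was higher in CP2 (381 CPM) than in NEP (112 CPM). The libraries shared 102 cell barcodes. Levels are UMIs summed over the cells of a class, divided by all UMIs of the same cells and multiplied by 1000000 (CPM). Intervals are exact 95% Poisson intervals and cover counting error only.

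At 2 places of the mitochondrial DNA, 2 reading frames share bases of 1 RNA, and the counts given to the partners moved in opposite directions between the libraries. These places are shown from GENCODE transcripts on GRCh38, with the shared bases in capitals. MT-ATP8 (chrM:8366-8572, plus strand), which encodes a small ATP synthase subunit, ends 46 bases inside MT-ATP6 (chrM:8527-9207), which encodes subunit a of the proton channel. The whole of MT-ATP8 and the first part of MT-ATP6, chrM:8527-8646, read as follows.
MT-ATP8: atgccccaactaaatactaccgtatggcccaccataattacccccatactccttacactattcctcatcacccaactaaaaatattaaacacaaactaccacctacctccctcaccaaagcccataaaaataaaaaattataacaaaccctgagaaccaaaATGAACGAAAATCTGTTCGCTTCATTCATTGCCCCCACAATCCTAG
MT-ATP6: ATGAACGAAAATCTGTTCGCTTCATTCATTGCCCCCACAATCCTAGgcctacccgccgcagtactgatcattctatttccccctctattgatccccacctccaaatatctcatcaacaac
MT-ND4L (chrM:10470-10766, plus strand) ends 7 bases inside MT-ND4 (chrM:10760-12137). Both encode membrane subunits of complex I. The last part of MT-ND4L, chrM:10707-10766, and the first part of MT-ND4, chrM:10760-10819, read as follows.
MT-ND4L: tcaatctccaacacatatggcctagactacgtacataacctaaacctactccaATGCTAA
MT-ND4: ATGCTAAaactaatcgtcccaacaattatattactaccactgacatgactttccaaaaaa

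In ENCC, the 13 mitochondrial-encoded genes together made up 35084 CPM at day 10 (95% interval 35024 to 35144) and 27634 CPM at day 15 (27590 to 27678). The sum was 1.27-fold lower at day 15 (log2 ratio -0.34, interval -0.35 to -0.34). The nuclear-encoded genes moved the other way, from 16534 CPM (16492 to 16575) to 20356 CPM (20319 to 20393), 1.23-fold higher (log2 ratio 0.30, 0.30 to 0.30), although the members with longer reading frames gave 0.0078. The ratio of nuclear-encoded to mitochondrial-encoded UMIs in ENCC was thus 0.471 at day 10 and 0.737 at day 15. Over all deposited cells the sums were 38115 and 29010 CPM for the mitochondrial genes and 17184 and 21120 CPM for the nuclear genes. The 2 ENCC sums were also scaled by trimmed mean of M values (TMM) factors in place of totals. This raised both day 15 over day 10 log2 ratios by about 0.19, to -0.16 and 0.49, so both directions held.

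The 13 mitochondrial genes did not move together. MT-CO1, the catalytic subunit of cytochrome oxidase, went in ENCC from 6636 CPM to 3909 CPM (log2 ratio of CPM + 1, day 15 over day 10, -0.76). MT-CO2, which takes electrons from cytochrome c, was at 4828 and 3215 CPM (-0.59). MT-CO3, the remaining mitochondrial subunit of complex IV, was at 8696 and 6102 CPM (-0.51). All 3 complex IV genes were lower at day 15, and in each the range over the 5 cell types of day 15 lay below the range over the 4 types of day 10.

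MT-ATP6 was at 2285 CPM at day 10 and 1232 CPM at day 15 (log2 ratio -0.89), whereas its overlapping partner MT-ATP8 went from 9.42 CPM (8.45 to 10.5) to 45.7 CPM (44.0 to 47.5), so that its log2 ratio was 2.16. MT-ND4 was at 3726 and 3014 CPM (-0.31), whereas MT-ND4L went from 42.6 CPM (40.5 to 44.8) to 186 CPM (183 to 190), so that its log2 ratio was 2.10. In both pairs the counts given to the short upstream frame were higher at day 15 and those given to the long downstream frame lower. There were 243 MT-ATP6 UMIs for each MT-ATP8 UMI at day 10 and 27.0 at day 15, and 87.5 MT-ND4 UMIs for each MT-ND4L UMI at day 10 and 16.2 at day 15. The frames of a pair lie on the same RNA and share the bases shown above, and a 3′ library counts the end of an RNA. The counts given to the upstream frames are therefore not levels of separate messages, and their source was not tested. How reads within the shared bases were assigned is not given in the sources used here, so the split between the partners is uncertain.

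MT-ND3, a short complex I gene that overlaps no other frame, went from 600 CPM (592 to 608) to 2173 CPM (2161 to 2185) and so was 3.62-fold higher at day 15 (log2 ratio 1.86). Its levels over the cell types ran from 583 to 736 CPM at day 10 and from 1741 to 2302 CPM at day 15, so the libraries did not overlap. The other complex I genes moved less: MT-ND1 had a log2 ratio of 0.08, MT-ND2 of -0.03, MT-ND5 of -0.20 and MT-ND6, the 1 member read from the opposite strand, of 0.28. MT-CYB, the cytochrome b of complex III, had -0.35. In all, 3 of 13 mitochondrial genes were over 1.5-fold higher (MT-ATP8, MT-ND3 and MT-ND4L) and 3 over 1.5-fold lower (MT-CO1, MT-CO2 and MT-ATP6), where 14.4% and 17.0% of all 4777 genes that reached 20 CPM in ENCC of either stage passed the same limits. MT-CO2 lay at the limit. Under TMM scaling neither MT-CO1 (-0.58) nor MT-CO2 (-0.40) passed it, and MT-ND2 turned to 0.16. Many nuclear copies of mitochondrial genes exist, 45 named in GENCODE for MT-CO1, and how reads that match both were counted is not known.

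**Figure D1:**
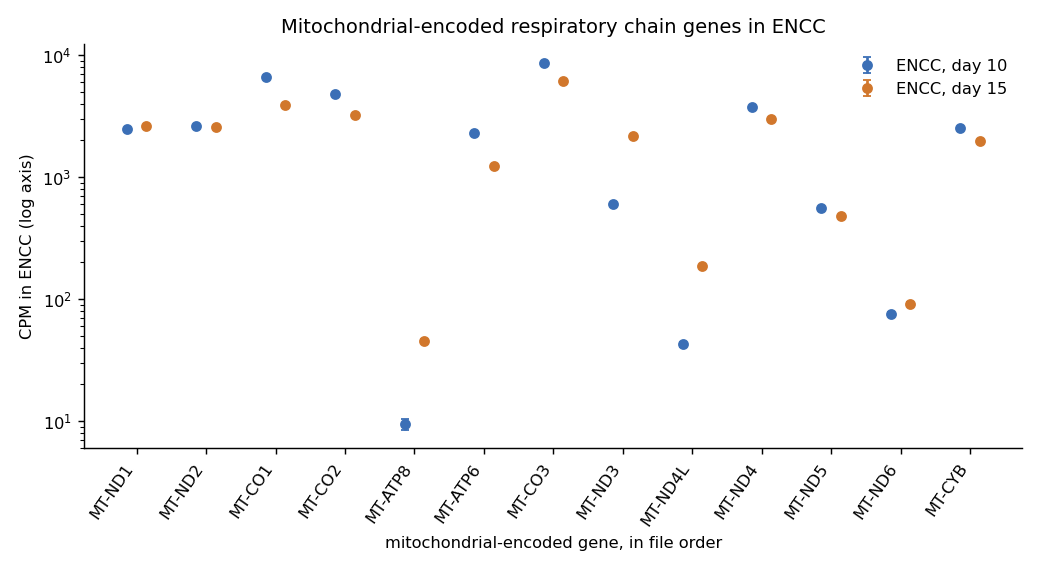
Levels of the 13 mitochondrial-encoded genes in ENCC of day 10 (blue) and day 15 (orange), in CPM on a log axis; bars are 95% Poisson intervals, often smaller than the points. MT-ATP8, MT-ND3 and MT-ND4L stand higher at day 15, and MT-CO1, MT-CO2, MT-CO3 and MT-ATP6 lower.

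Of the 84 nuclear-encoded members, 75 reached 20 CPM in ENCC of at least 1 stage. Their median log2 ratio of day 15 over day 10 was 0.20, beside -0.15 over all 4777 genes that reached that level, and 46 of the 75 lay above 0. For the 45 members of at least 360 coding bases, a choice made after seeing the data, the median was -0.072 and the log2 ratio of their sum 0.0078. Over 1.5-fold higher were 16 members, 21.3% of the 75 beside 14.4% of all genes, and over 1.5-fold lower were 3 (SDHB, SDHD and ATP5SL), 4.0% beside 17.0%. At 2-fold, 7 of the 75 members were higher, a share near the 8.19% of all genes, and 0 were lower, beside 4.61% of all genes. Under TMM scaling 22 were higher and 1 was lower, beside 20.2% and 9.18% of all genes, and 57 lay above 0. The 11 members whose sign turned there were NDUFA2, NDUFA10, NDUFB5, NDUFB8, NDUFB9, NDUFB11, NDUFS4, COX5A, ATP5G2, ATP5G3 and ATP5O. The members that were higher belonged to complexes I, III, IV and V, and none to complex II.

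**Figure D2:**
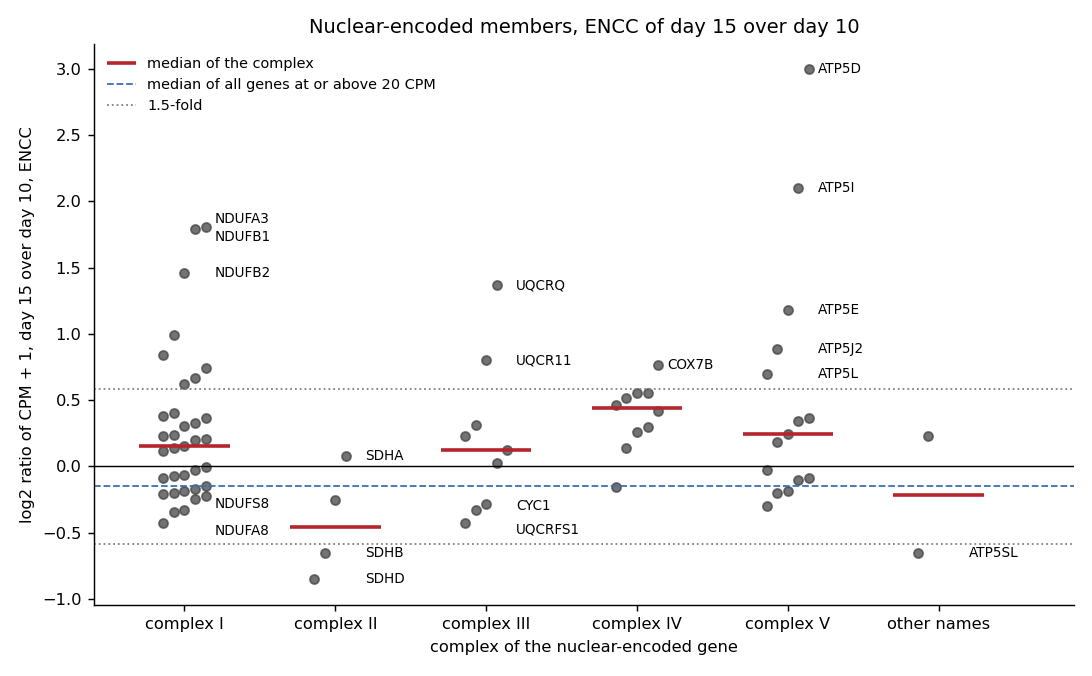
Each point is 1 of the 75 nuclear-encoded members that reached 20 CPM, placed by complex, with its log2 ratio of CPM + 1 in ENCC of day 15 over day 10. Red bars are the medians of each complex, the dashed line the median of all genes (-0.15) and the dotted lines 1.5-fold; complex II (-0.46) is the one numbered complex whose median lies below 0.

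Complex I has 36 nuclear members, of which 35 reached 20 CPM, with a median log2 ratio of 0.16. Of these 35, 8 were over 1.5-fold higher and 0 lower, beside 14.4% and 17.0% of all genes. NDUFS7 stayed under the minimum, with 7.17 CPM (6.33 to 8.09) at day 10 against 7.31 CPM (6.61 to 8.05) at day 15.

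The largest complex I ratio was that of NDUFA3, a small membrane-arm subunit, at 40.5 CPM (38.5 to 42.6) in ENCC of day 10 and 144 CPM (141 to 147) at day 15, 3.56-fold higher. NDUFB1 was at 75.5 CPM (72.7 to 78.4) and 264 CPM (260 to 269), 3.50-fold higher. NDUFB2 was at 118 CPM (115 to 122) and 327 CPM (322 to 332), 2.77-fold higher. For all 3, every cell type of day 15 was above every cell type of day 10. NDUFA1 (log2 ratio 0.99), NDUFB7 (0.84), NDUFA11 (0.74), NDUFA6 (0.67) and NDUFA13 (0.62) completed the 8.

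At the other end, NDUFA8 was at 92.8 CPM (89.7 to 95.9) at day 10 against 68.6 CPM (66.5 to 70.8) at day 15, 1.35-fold lower, and NDUFS8, a core iron-sulfur subunit, was at 137 CPM (133 to 140) and 108 CPM (105 to 110), 1.27-fold lower. In both, the ranges over the cell types of the 2 libraries overlapped. NDUFS5, the complex I member with the highest level at both stages, was at 391 CPM (385 to 398) and 436 CPM (430 to 441). Since a UMI marks the 3′ end of 1 molecule, these levels need no division by length, but how readily each transcript is captured is not known.

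Complex II, succinate dehydrogenase, also works in the citric acid cycle. Its flavoprotein SDHA was at 27.1 CPM (25.4 to 28.8) at day 10 against 28.7 CPM (27.3 to 30.2) at day 15, with overlapping intervals. The iron-sulfur subunit SDHB was at 37.0 CPM (35.0 to 39.0) and 23.1 CPM (21.9 to 24.4), 1.60-fold lower, and its range over cell types of 20.0 to 30.1 CPM at day 15 lay below that of 33.2 to 46.0 CPM at day 10. Of the membrane anchors, SDHC was at 143 CPM (139 to 146) and 119 CPM (116 to 122), 1.20-fold lower. The other anchor, SDHD, was at 41.6 CPM (39.6 to 43.8) and 22.6 CPM (21.4 to 23.9), 1.84-fold lower, the lowest log2 ratio (-0.85) of any nuclear member that reached 20 CPM. Among the cell types SDHD overlapped between the libraries, since it was at 49.9 CPM in Mes at day 15, where 28 UMIs were counted.

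Complex III has 9 members that all reached 20 CPM, with a median log2 ratio of 0.12. The Rieske iron-sulfur protein UQCRFS1 was at 208 CPM (204 to 213) at day 10 against 155 CPM (152 to 158) at day 15, 1.34-fold lower, and cytochrome c1, CYC1, was at 155 CPM (151 to 159) and 123 CPM (120 to 126), 1.26-fold lower. Both were lower in every cell type of day 15 than in every type of day 10. The core proteins UQCRC2 and UQCRC1 had log2 ratios of -0.28 and 0.12.

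The small subunits of complex III, which hold no electron carrier, were flat or higher. UQCRQ was at 116 CPM (113 to 120) and 302 CPM (298 to 307), 2.60-fold higher, and UQCR11 was at 213 CPM (208 to 217) and 371 CPM (366 to 376), 1.75-fold higher. UQCRH, the complex III member with the highest level, was at 938 and 954 CPM (log2 ratio 0.03), and its near-identical copy UQCRHL, with which it may share reads, was at 10.6 and 12.1 CPM.

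Of complex IV the name pattern took in 15 nuclear members, of which 10 reached 20 CPM. The median log2 ratio of these 10 was 0.44 and 9 of 10 lay above 0, in contrast to the 3 mitochondrial subunits of the same complex. The pattern left out COX4I1, the general form of subunit IV, which is given further below. COX4I1 was above every one of the 10 at day 10 and was lower at day 15 than at day 10. COX7B was at 152 CPM (148 to 156) at day 10 against 259 CPM (254 to 263) at day 15, 1.71-fold higher. It was the 1 of the 10 members past 1.5-fold, beside 14.4% of all genes higher and 17.0% lower. COX7A2 (log2 ratio 0.56), COX8A (0.55), COX7C (0.52), COX6C (0.46) and COX6B1 (0.42) came next. COX5A, which binds the larger subunits, was the 1 of the 10 below 0, at 373 and 335 CPM (-0.16, but 0.03 under TMM scaling), and its neighbour COX5B was at 241 and 289 CPM (0.26). NDUFA4, named for complex I and now placed in complex IV, had the highest level of these 10 members at day 10 (742 CPM) and COX7C at day 15 (1036 CPM).

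The tissue-restricted forms of complex IV subunits were at or near 0. In ENCC, COX6A2 and COX7A1, the forms of heart and skeletal muscle, and COX7B2 had 0 UMIs at both stages, where 3 UMIs would be 0.0812 CPM at day 10 and 0.0537 CPM at day 15. COX6B2 had 11 and 14 UMIs and COX8C had 30 and 10. Their general counterparts COX6A1 (276 and 339 CPM), COX7A2 (310 and 457 CPM), COX7B, COX6B1 (315 and 422 CPM) and COX8A (302 and 443 CPM) supplied nearly all counts of these positions at both stages.

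Complex V held the largest ratios of the nuclear members, those of ATP5D and ATP5I, but not all of its members were higher. ATP5H (log2 ratio 0.34), ATP5J (0.19), ATP5O (-0.09) and ATP5F1 (-0.20) stayed within 1.5-fold. ATP5D, the delta subunit of the central stalk, was at 15.4 CPM (14.2 to 16.7, 570 UMIs) in ENCC of day 10 and at 130 CPM (127 to 133, 7257 UMIs) at day 15, 8.42-fold higher. It was the lowest nuclear complex V member at both stages, with 10.8 to 15.4 CPM over the types of day 10 and 111 to 159 CPM over those of day 15. ATP5E, the epsilon subunit of the same stalk, was at 387 CPM (380 to 393) and 877 CPM (869 to 885), 2.27-fold higher. The third member of this stalk, ATP5C1 (gamma), was at 218 and 177 CPM (-0.30). The subunits of the membrane part that help ATP synthase to form dimers were all over 1.5-fold higher: ATP5I (subunit e) was at 122 CPM (118 to 125) and 524 CPM (518 to 530), 4.31-fold higher, ATP5L (subunit g) was 1.62-fold higher and ATP5J2 (subunit f) 1.85-fold higher.

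Of the catalytic head of ATP synthase, ATP5A1 (alpha) was at 478 and 420 CPM (log2 ratio -0.19) and ATP5B (beta) at 324 and 418 CPM (0.37), neither past 1.5-fold. The 3 genes that encode the same c-ring protein did not pass 1.5-fold either: ATP5G2 was at 1314 and 1290 CPM, ATP5G3 at 616 and 574 CPM, and ATP5G1 at 148 and 175 CPM. ATP5G2 gave most of the c-ring transcripts at both stages.

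Of the 5 names that the pattern took in without a place in a complex, ATP5SL, which encodes an assembly factor of complex I rather than an ATP synthase subunit, was at 92.5 CPM (89.4 to 95.6) and 58.4 CPM (56.4 to 60.4), 1.58-fold lower, and lower in every type of day 15. ATP5S was at 23.2 and 27.3 CPM, and UQCRHL, ATP5L2 and the read-through name ATP5J2-PTCD1 stayed under 20 CPM.

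Across the cell types, 24 of the 75 nuclear members (32.0%) were higher in every day 15 type than in every day 10 type, beside 9.94% of all genes, and 4 (SDHB, CYC1, UQCRFS1 and ATP5SL; 5.33%) were lower, beside 7.43%. These types come from the same 2 libraries and are not replicates.

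Among the members, higher ratios at day 15 went with shorter reading frames, with exceptions. ATP5D, which had the largest ratio, had at least 360 coding bases. Over the 75 nuclear members, Spearman's rho between coding length (GENCODE v29, principal transcript) and the log2 ratio was -0.64, over the 13 mitochondrial members -0.55 and over 83 cytosolic ribosomal protein genes -0.69, but over 70 mitochondrial ribosome genes -0.02 and over 4677 genes with a length 0.08. These are descriptions over genes of the same 2 libraries. Of the 9 nuclear members with under 240 coding bases 4 were over 1.5-fold higher, of the 21 with 240 to under 360 bases 7, of the 24 with 360 to under 600 bases 5, and of the 21 longer ones 0. Among genes that are not members, the shares over 1.5-fold higher in the same length classes were 35.1%, 16.6%, 10.8% and 14.1%. Among the 45 members of at least 360 coding bases, 5 were higher and 3 lower. Without MT-ATP8, MT-ND3 and MT-ND4L the mitochondrial sum had a log2 ratio of -0.45. The GC content of the transcript had a rho of 0.15 with the ratio over the nuclear members and 0.03 over all genes. The part of coding length in these results was not tested.

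**Figure D3:**
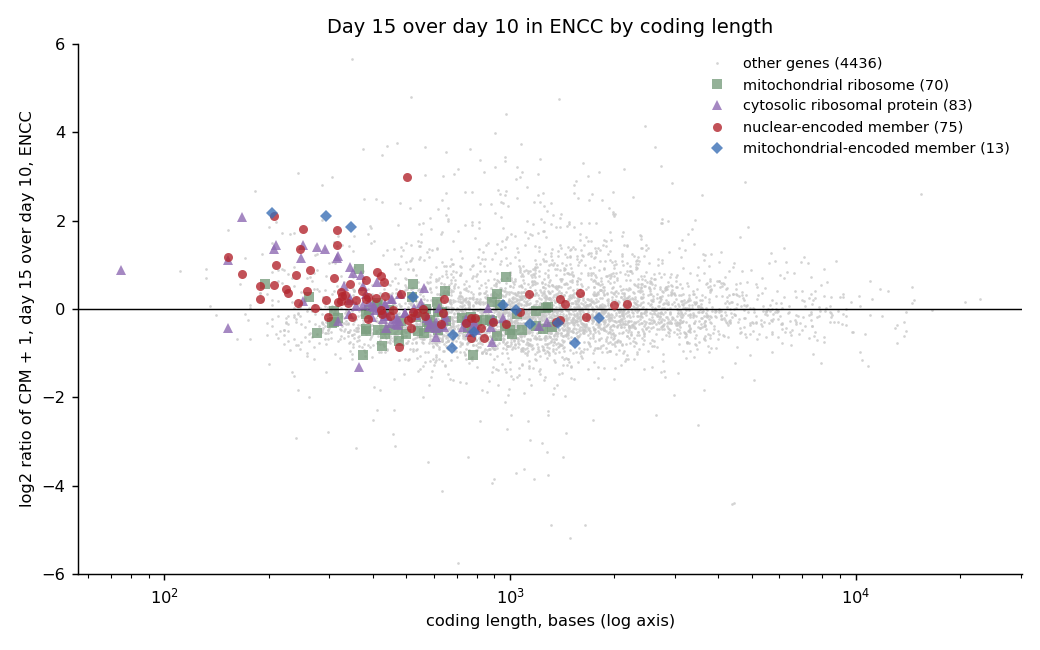
Each point is a gene that reached 20 CPM in ENCC, with its coding length in bases (log axis) and its log2 ratio of CPM + 1 for day 15 over day 10. Nuclear-encoded members (red) and cytosolic ribosomal protein genes (violet) stand higher at short lengths (rho -0.64 and -0.69), and mitochondrial ribosome genes (green) do not (rho -0.02); blue points are the 13 mitochondrial-encoded members and grey ones all other genes.

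Other genes of the pathway were taken from lists kept apart from the members. Of the 2 small ATP synthase subunits outside the name pattern, USMG5 was at 132 and 337 CPM (log2 ratio 1.35) and C14orf2 at 366 and 654 CPM (0.84), both over 1.5-fold higher. COX4I1, the general form of subunit IV, was at 989 and 896 CPM, and CYCS, cytochrome c itself, at 151 and 169 CPM. COX7A2L, a supercomplex factor, was at 256 and 151 CPM (-0.76). Over these 7 of 9 subunits at 20 CPM or more, the median was 0.07. NDUFA4L2, a relative of NDUFA4, went from 11 UMIs to 772 UMIs in ENCC and reached 13.8 CPM.

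Of 41 assembly factors 29 reached 20 CPM, with a median of -0.21, and 5 were over 1.5-fold higher (NDUFAF2, TTC19, COX16, COX20 and ATPAF1) and 5 lower (ECSIT, UQCC1, COX11, COA7 and SDHAF1). These shares of the 29 were near those of all genes, 14.4% higher and 17.0% lower, beside which the lists below are also read. COX20, a chaperone of MT-CO2, was at 26.3 and 85.1 CPM. Of 14 regulators of the genes, 4 reached 20 CPM. TFAM, which packages mitochondrial DNA and helps to start its transcription, was at 49.2 and 49.3 CPM, and ESRRA, a nuclear receptor that acts with PGC-1 coactivators, at 6.25 CPM (5.47 to 7.11) and 21.5 CPM (20.3 to 22.8), the 1 over 1.5-fold higher. PPARGC1A, which encodes PGC-1alpha, had 15 and 6 UMIs. Of 8 factors of mitochondrial RNA 4 reached 20 CPM, with 2 over 1.5-fold higher (SLIRP and GRSF1) and 0 lower. SLIRP, which with LRPPRC stabilises mitochondrial messages, was at 126 and 344 CPM (1.44), while LRPPRC was at 55.6 and 53.3 CPM.

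The neighbouring mitochondrial lists are read beside the median of all genes, -0.15. Of 13 citric acid cycle genes at 20 CPM or more 0 were over 1.5-fold higher and 3 lower (CS, PDHB and DLAT; median -0.18), and the phosphate carrier SLC25A3 was at 1257 and 767 CPM (-0.71), the 1 of 4 carriers past 1.5-fold. Of 70 mitochondrial ribosome genes 2 were higher and 5 lower (median -0.26), and of 19 import genes 4 were higher and 1 lower (median -0.14), with TOMM40, the import pore, at 10.8 and 99.9 CPM. These shares stand beside the 14.4% and 17.0% of all genes given above.

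Within each library the nuclear members were lowest in ENCC. At day 10 their sum was 16534 CPM in ENCC, 17924 CPM in NNE, 18046 CPM in CP and 18744 CPM in NEP. At day 15 it was 20356 CPM in ENCC, 23449 CPM in Mes, 23862 CPM in CP1, 24638 CPM in NEP and 28985 CPM (28462 to 29517) in CP2, 1.42-fold above ENCC. All 7 types were above ENCC. The share of UMIs in cytosolic ribosomal protein genes was highest in ENCC of both libraries and lowest in CP2, but did not follow the order of the other types: it was 44.1% in ENCC, 36.2% in NNE, 41.1% in CP and 37.2% in NEP of day 10, and 44.5% in ENCC, 39.2% in Mes, 31.5% in CP1, 32.6% in NEP and 19.8% in CP2 of day 15. With ribosomal protein and mitochondrial genes left out of the denominator, an alternative chosen after seeing the data, 3 of 7 types were above ENCC, and CP2 was at 37443 CPM against 38614 CPM in ENCC. The part of the ribosomal protein share in the levels of the types was not tested beyond this.

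The mitochondrial sum varied less between types. It ran from 35084 to 36752 CPM over the types of day 10. At day 15 it was 27486 CPM in NEP, 27634 CPM in ENCC, 27926 CPM in CP2, 28794 CPM in CP1 and 32112 CPM (31645 to 32585) in Mes. The intervals of NEP and CP2 against ENCC included 0, and Mes was 1.16-fold higher. Among G1 cells alone the log2 ratios over ENCC were 0.14 in NEP, 0.15 in Mes, 0.20 in CP1 and 0.22 in CP2. The mitochondrial sum at day 15 was below that of day 10 in every type.

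**Figure D4:**
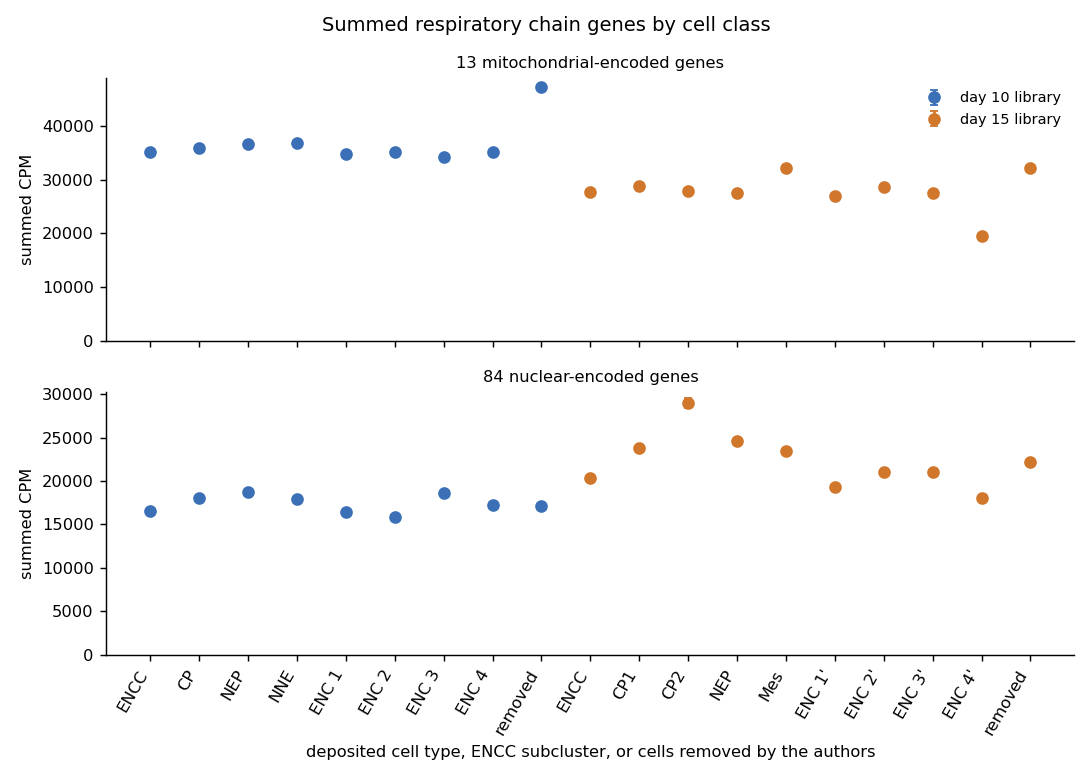
Summed CPM of the 13 mitochondrial-encoded genes (top) and the 84 nuclear-encoded genes (bottom) in each deposited cell type, ENCC subcluster and the cells the authors removed, for day 10 (blue) and day 15 (orange); bars are 95% Poisson intervals. ENC 4' is lowest and the removed cells of day 10 highest for the mitochondrial genes, and CP2 is highest for the nuclear genes.

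Single members seldom differed 2-fold between a type and ENCC. At day 10 there were 0 such members in CP, NEP and NNE, where 5.13%, 11.4% and 13.2% of all genes were over 2-fold higher and 1.91%, 2.95% and 4.36% over 2-fold lower. At day 15, CP1 had 1 member higher (NDUFA7, 92.9 CPM against 42.7; 16.1% of all genes), Mes had 1 (SDHD; 6.16%) and NEP had 2 (NDUFC1, 284 CPM against 121, and NDUFB5, 240 CPM against 109; 18.9%). CP2 had 12 of the 84 nuclear members, a smaller share than the 34.5% of all genes. The largest of these were NDUFA5 at 271 CPM against 79.4 (log2 ratio 1.76, 109 UMIs), COX7A2 at 1500 CPM against 457 (1.71, 603 UMIs), NDUFS1 at 67.2 CPM against 25.5 (1.36, 27 UMIs) and COX6A1 at 848 CPM against 339 (1.32, 341 UMIs). In CP1, CP2, Mes and NEP of day 15, 0 members were over 2-fold lower, beside 5.75%, 12.3%, 3.08% and 5.57% of all genes. The types are clusters of the same cells, so these values describe them.

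Among the ENCC subclusters, ENC 4' of day 15 (138 cells) stood apart in the mitochondrial genes. Their sum was 19551 CPM (19329 to 19774) there and 27864 CPM in the other subclustered ENCC of that library, a log2 ratio of -0.51, and it was 26975, 28623 and 27439 CPM in ENC 1', ENC 2' and ENC 3'. MT-ND6 was at 21.1 CPM (32 UMIs) against 94.0 CPM, a log2 ratio of -2.10 with a counting interval of -2.70 to -1.66. MT-ND3 was at 780 CPM against 2213 CPM (-1.50) and MT-ND2 at 1193 CPM against 2610 CPM (-1.13). These 3 were over 2-fold lower, where 10.9% of all genes were, and 0 members were over 2-fold higher, where 4.56% were.

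The low level in ENC 4' did not extend to every mitochondrial gene. MT-CO1 was at 4240 CPM against 3894 CPM (log2 ratio 0.12) and MT-ND4L at 243 CPM against 184 CPM (0.40), and the other 11 were lower. MT-CO2 had -0.71, MT-ATP6 -0.70, MT-CYB -0.60, MT-CO3 -0.41 and MT-ND4 -0.36. The nuclear members of ENC 4' summed to 17996 CPM against 20419 CPM (-0.18), with 2 over 2-fold lower: ATP5G1 at 83.1 CPM against 178 CPM and UQCRQ at 150 CPM against 307 CPM.

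The cell cycle moved with the mitochondrial sum at day 15. ENCC assigned to G1 had 24016 CPM, those in S 29086 CPM and those in G2M 29631 CPM, whereas at day 10 the values were 34642, 35243 and 35390 CPM. ENC 4' held 86.2% G1 cells and the other subclusters of day 15 28.6% to 48.7%. Among G1 cells alone ENC 4' was still lowest, with 19488 CPM (119 cells) against 22582, 26037 and 23928 CPM in ENC 1', ENC 2' and ENC 3'. Mitochondrial percent and cell cycle scores had been regressed out before the authors clustered these cells. With G1 cells only, the mitochondrial sum of ENCC had a day 15 over day 10 log2 ratio of -0.53.

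**Figure D5:**
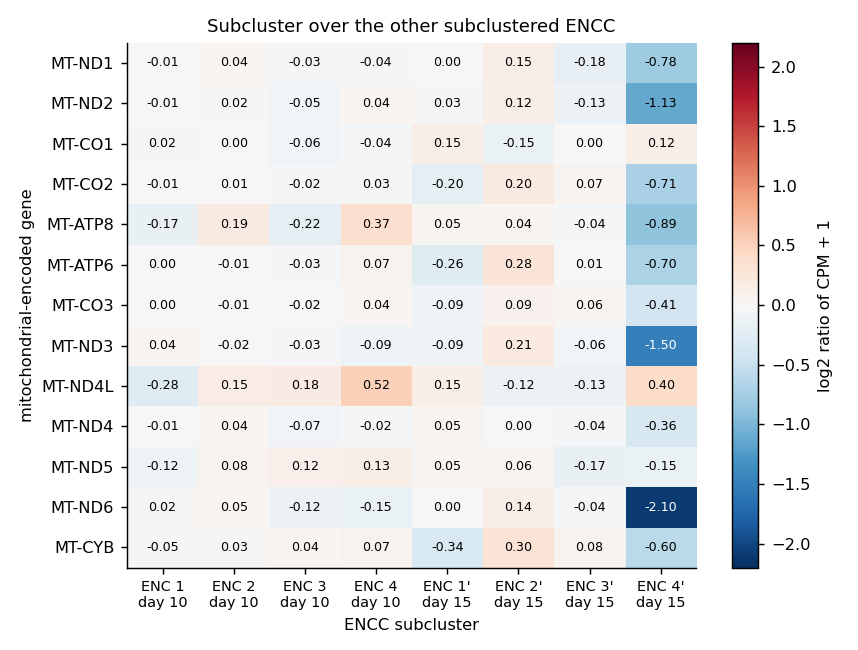
Log2 ratio of CPM + 1 of each mitochondrial-encoded gene in an ENCC subcluster over the other subclustered ENCC of the same library, as a number and a colour (blue lower, red higher). ENC 4' (138 cells) has the lowest values, -2.10 for MT-ND6 and -1.50 for MT-ND3, beside 0.12 for MT-CO1 and 0.40 for MT-ND4L; ENC 1 to ENC 4 of day 10 run from -0.28 to 0.52.

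The subclusters of day 10 differed less. Their mitochondrial sums ran from 34236 CPM in ENC 3 to 35248 CPM in ENC 4. ENC 3 (348 cells) had the highest nuclear sum, 18622 CPM against 16304 CPM in the other subclustered ENCC (log2 ratio 0.19), and its largest differences were the complex I subunits NDUFC1 at 162 CPM against 88.3 (0.87), NDUFB4 at 253 CPM against 153 (0.72) and NDUFB6 at 121 CPM against 73.6 (0.71). ENC 2 was lowest with 15906 CPM. At day 15 the nuclear sum was 19349 CPM in ENC 1', where NDUFB9 (-0.41), NDUFA8 (-0.41) and NDUFB10 (-0.36) differed most, and 20996 and 21007 CPM in ENC 2' and ENC 3'. In ENC 2' the largest differences were NDUFS6 (0.45), ATP5G1 (0.41) and NDUFS8 (0.39), all higher. Outside ENC 4', 0 members passed 2-fold in a subcluster. Few genes did so at all. At day 10 the shares of all genes over 2-fold higher were 0% in ENC 1, 1.43% in ENC 2, 0.575% in ENC 3 and 1.38% in ENC 4, and those over 2-fold lower 1.04%, 0%, 1.59% and 0.655%. At day 15 the shares in ENC 1', ENC 2' and ENC 3' were 1.06%, 0% and 0.738% higher and 0.161%, 1.19% and 0.323% lower.

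Between the cells that the authors removed and those they kept, 0 members passed 2-fold in either library. Of all genes, 0.672% were over 2-fold higher and 0% lower in removed cells of day 10, and 4.63% higher and 0.0419% lower in those of day 15. The median log2 ratio of removed over kept cells was 0.44 and 0.24 for the mitochondrial members and -0.01 and 0.12 for the nuclear ones.

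Promoters were looked at for the letters of factors known for respiratory chain genes, in the RefSeq windows on GRCh38.p14 from 250 bases before to 50 bases after the start of a gene. A window was found for 66 of the 84 nuclear members. The letters CGCATGCG, the core of the NRF1 motif and the same on both strands, were in 10 of them (15.2%), beside 2.0% of all 34796 distinct windows and 2.46% of 21957 windows of protein-coding genes. With a G before and a C after the core, the letters were in 4 members (1.23% of all windows). Of the members with the core, the 2 with the highest and the 2 with the lowest day 15 over day 10 ratio in ENCC are shown, with 10 bases on either side, in the direction of the gene and with the core in capitals.
ATP5I (chr4:674336-674363, minus strand): ccgctgacggCGCATGCGtgcgcccagc
NDUFS6 (chr5:1801352-1801379, plus strand): agaagccgtgCGCATGCGttagcgctaa
NDUFA8 (chr9:122159765-122159792, minus strand): ttgccggatgCGCATGCGcaggcgccgt
SDHD (chr11:112086754-112086781, plus strand): gctgtgtttgCGCATGCGcgacgggtgt
The log2 ratios of these were 2.10 for ATP5I, 0.40 for NDUFS6, -0.43 for NDUFA8 and -0.85 for SDHD, so members with the same letters lay at both ends of the range. The letters AAGATGGC, searched for YY1 on both strands, were in 11 windows of members (16.7%, beside 2.89% of all), and CCGGAAG, searched for ETS factors such as GABPA on both strands, in 18 (27.3%, beside 10.2%). Among windows of protein-coding genes the shares were 3.54% for the YY1 letters and 12.8% for the ETS letters. The letters of YY1 and ETS overlapped in 0 of the windows of members, and 32 of these 66 windows held at least 1 of the 3 motifs. A match of letters is a description and shows no binding.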

How the data were processed

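Single-cell 3′ RNA libraries were made by droplet capture (10x Genomics) from 2 H9 cultures. According to the methods, the authors made the matrices with kallisto and bustools; the submitters' processing notes name Cell Ranger, Seurat 4.0.4 and GRCh38. The authors deposited raw UMI counts per gene and cell, without normalization, and metadata with the percent of mitochondrial and ribosomal UMIs, phase, cell type and ENCC subcluster. They set limits of 5% (day 10) and 10% (day 15) on mitochondrial UMIs, and further limits on the genes and UMIs per cell. The 5% limit bounds the mitochondrial genes of kept cells at day 10. At day 15 no removed cell reached the 10% limit. The methods also describe hashtag (HTO) antibodies, pooling of cells and demultiplexing with Seurat. No doublet caller was run on the deposited counts here.

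Counts were summed per class and scaled to CPM. Ratios used CPM + 1 and genes with at least 20 CPM in a compared class, with limits of 1.5-fold between stages and 2-fold between classes. A list's median and counts stand beside those of all genes. Named were all mitochondrial members, the highest and lowest of each complex, the 6 largest and 6 smallest ratios, replaceable paralogs, and members past 2-fold in a type or most different in a subcluster; the NRF1 letters were shortened to an 8-base core, and others were named, after their values were seen. Members and lists were chosen with earlier results of these data known. Alternatives covered denominators, TMM (edgeR 4.0.16, R 4.3.3), pseudocount, minimum, fold, per-cell means, phase, thinning and cell sets. Python 3.11.15 with scipy 1.17.1 was used, and the steps were tested on simulated data. Lengths and positions came from GENCODE v29, which matched all 97 members. Some items are not reported here.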

Additional observations from a re-analysis of the deposited data

Results flagged for a closer look

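The cells that the authors removed, which no comparison of cell types uses, carried a mitochondrial signal above that of the kept cells. At day 10 the 13 mitochondrial-encoded genes summed to 47346 CPM in 2332 removed cells and 35588 CPM in 7295 kept cells, a log2 ratio of 0.41. Among the removed cells 1095 reached the 5% limit, so that the filter itself fixes part of this difference. At day 15 the sums were 32170 CPM in 984 removed cells and 27721 CPM in 5336 kept cells, a log2 ratio of 0.21, and none, 0 cells, reached the 10% limit. The authors also set lower and upper limits on the genes per cell and an upper limit on the UMIs. The removed cells of day 10 had a median of 3679 UMIs, beside 7101 in kept cells. Those of day 15 had a median of 21367 UMIs, beside 11089 in kept cells. The nuclear-encoded members were at 17093 and 17210 CPM in removed and kept cells of day 10 and at 22240 and 20662 CPM at day 15. Of the members, 0 passed 2-fold between removed and kept cells in either library.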

How the results depend on the processing

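No paired analysis was possible because each group has 1 library and no test was made. With 1 library per stage the values have no replicate error, and for members with few counts, such as MT-ATP8 and ATP5D at day 10, depth limits the precision. For ENCC of day 15 over day 10, the mitochondrial sum (log2 ratio -0.34) was -0.16 with TMM factors, -0.33 as a mean over cells, -0.53 in G1 cells, -0.34 in numbered subclusters, -0.36 in cells under 5% mitochondrial UMIs, -0.33 in cells thinned to 3000 UMIs (2 shallower cells left out at day 10), -0.39 over all deposited cells, -0.32 without MT-ATP6 and MT-ATP8, and -0.45 without MT-ATP8, MT-ND3 and MT-ND4L. The nuclear sum (0.30) was 0.29 without the mitochondrial genes in the denominator, 0.49 with TMM factors, 0.26 in G1 cells, 0.31 in numbered subclusters, 0.29 without mitochondrial and ribosomal protein genes in the denominator, and 0.0078 for members of at least 360 coding bases. The median of the nuclear members (0.20) was 0.38 with TMM factors and 0.095 in G1 cells, and turned to -0.072 for members of at least 360 coding bases. The median of all genes moved from -0.15 to 0.07 with TMM factors. The counts of members higher and lower (16 and 3) were 7 and 0 at 2-fold, 5 and 3 for members of at least 360 coding bases, and 22 and 1 with TMM factors, where the share of higher among called members went from 84.2% to 95.7%; other settings gave 16 higher and 2 to 4 lower. With mitochondrial and ribosomal protein genes left out of the denominator, 3 of 7 types instead of 7 were above ENCC in the nuclear sum; NNE of day 10 turned to -0.082, and CP1, CP2 and NEP of day 15 to -0.087, -0.044 and -0.020. The mitochondrial sum turned to 0.014 in ENC 3 (from -0.03) and to 0.14 in NEP of day 15 (from -0.01) in G1 cells, and to 0.0037 in ENC 1 (from -0.0030) as a mean over cells; the last 2 had intervals that included 0. Of 90 alternatives for single types and subclusters, 83 kept their sign and 7 did not. Removed over kept cells, the mitochondrial log2 ratio was 0.37 at day 10 and 0.17 at day 15 when thinned to 1000 UMIs, and 0.37 and 0.16 as a mean over cells. The denominators without ribosomal protein genes, the length limit, the lists of mitochondrial genes left out and the mean over removed cells were chosen after seeing the data. The causes of these changes were not tested.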

Other observations

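Among single ENCC, the share of UMIs in mitochondrial-encoded members and that in nuclear-encoded members had a Spearman's rho of 0.06 over 4921 cells at day 10 and 0.35 over 4934 cells at day 15. Both shares are over the same UMI total of a cell, and cells of a library are not replicates. The mitochondrial share had a rho of -0.23 with the ribosomal percent at day 10 and of -0.61 at day 15, and with the UMIs per cell of 0.028 and -0.0022. Kept cells with under 1% mitochondrial UMIs numbered 10 at day 10 and 37 at day 15. The ENCC outside any numbered subcluster, 256 cells at day 10 and 27 at day 15, had mitochondrial sums of 38008 and 27059 CPM and nuclear sums of 17761 and 20952 CPM.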
